A study of Mus musculus with 4 samples.

Results

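Chitinase-like and chitinase genes were followed in the septal nasal mucosa of young adult and aged mice: *Chil1*, *Chil3*, *Chil4*, *Chia1* and *Chit1*. All probes whose accession maps to one of these symbols were taken, which gave 6 probes for the 5 genes, of 56605 probes and 45616 genes in all. *Chit1* had 2 probes and the other genes 1 each. The genes were chosen with the age difference of these same arrays in view, so their differences between ages are given as a description, without a test. The mice were C57BL/6J by the labels and male by the methods, with no genetic modification or treatment named for either group, and were aged 8 weeks (young adult) or 16 months (aged). Each of the 4 arrays, 2 per age, carried RNA pooled from 5 mice and labelled with Cy3, so the spread between arrays is that between pools. The methods count fewer mice for gene analyses than separate pools would take, and do not say whether pools shared animals. The sample labels name the tissue olfactory epithelium, the protocol names septal nasal mucosa, and a description line and the name of the age tag speak of silica or lung, which neither the titles nor the methods bear out.

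Chitinases are glycoside hydrolases that cleave chitin, a polymer of N-acetylglucosamine found in fungi, mites, insects and parasites but not made by mammals. Mice have a pair of active chitinases, the acidic mammalian chitinase *Chia1* and the chitotriosidase *Chit1*, and several secreted chitinase-like proteins that keep the fold of the enzymes but have lost the catalytic residue. *Chil1* (also called Chi3l1 or Brp39) is made by macrophages, chondrocytes and epithelial cells, and *Chil3* (Ym1) and *Chil4* (Ym2) are known from alternatively activated macrophages, neutrophil precursors and airway epithelium. Ym1 and Ym2 proteins can form crystals, and epithelial inclusions of them are known from the nose of ageing mice.

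In the gene order of the mouse genome, *Chia1*, *Chil3* and *Chil4* lie side by side, and *Chit1* and *Chil1* are direct neighbours on another chromosome. The first 3 genes were higher in aged mice and the second pair lower. The promoters of the first 3 are shown because these neighbours moved in the same direction and the sequences show how alike they are. Each runs from 250 bases before to 50 bases after the RefSeq start of the gene (build GRCm38.p6), on the strand of the gene. Capitals mark TATAAAAAGCCA, the longest run of bases that all 3 share. The promoter of *Chil3* is chr3:106167515-106167814 on the minus strand, that of *Chil4* chr3:106219430-106219729 on the minus strand and that of *Chia1* chr3:106113132-106113431 on the plus strand.
Chil3: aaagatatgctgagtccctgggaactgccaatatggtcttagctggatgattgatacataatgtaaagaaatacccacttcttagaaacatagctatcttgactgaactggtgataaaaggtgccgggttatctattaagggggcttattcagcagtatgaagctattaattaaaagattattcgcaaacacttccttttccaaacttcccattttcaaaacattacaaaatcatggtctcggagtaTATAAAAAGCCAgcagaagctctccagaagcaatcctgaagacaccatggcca
Chil4: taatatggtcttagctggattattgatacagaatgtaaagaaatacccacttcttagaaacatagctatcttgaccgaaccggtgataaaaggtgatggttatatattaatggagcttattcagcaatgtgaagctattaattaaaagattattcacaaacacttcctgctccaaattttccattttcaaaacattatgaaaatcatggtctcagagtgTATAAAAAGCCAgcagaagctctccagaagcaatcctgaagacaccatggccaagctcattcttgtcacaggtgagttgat
Chia1: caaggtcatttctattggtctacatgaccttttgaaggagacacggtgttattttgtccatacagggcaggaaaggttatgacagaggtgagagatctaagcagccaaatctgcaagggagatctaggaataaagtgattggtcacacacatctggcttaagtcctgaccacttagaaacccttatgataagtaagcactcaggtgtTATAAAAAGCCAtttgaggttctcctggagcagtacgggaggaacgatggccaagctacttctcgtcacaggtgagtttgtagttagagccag

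The promoters of *Chil3* and *Chil4* were identical at 251 of 270 aligned bases (93%) in a local alignment. *Chil4* and *Chia1* were identical at 160 of 240 aligned bases (66.7%), and the best alignment of *Chil3* with *Chia1* covered 53 bases. The capital stretch begins 3 bases before the annotated start of *Chil3*, 31 before that of *Chil4* and 43 before that of *Chia1*. The windows of *Chil4* and *Chia1* thus reach further past the stretch than that of *Chil3*. All 3 windows also include bases after the start, so aligned lengths are not compared between pairs. Read on both strands, the capital stretch was present in 8 of 32851 promoters of this length (0.0244%), these 3 included, and TATAAA, which it contains, in 13.6%. The stretch was taken from these 3 promoters, so its presence in them was fixed in advance and its rarity is not read. Motifs of factors known for these genes were also searched on both strands. The STAT6 motif searched, TTC and GAA with any 4 bases between them and held by 6.95% of all promoters, and GAGGAAGT, a PU.1 motif held by 3.2%, had no match in the promoters of the 5 genes. TTGCNNAA, a C/EBP motif held by 10.8%, had 1 match, 131 bases before the start of *Chil4*. The promoters of *Chil1* and *Chit1* held none of the searched letters. These are matches of letters in one window and no more.

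On the 4 arrays, 63.1 to 76.8% of non-control spots were well above background and no spot was saturated. The median local background was 67 on young adult array 1 and 63 on aged array 1, which shared a slide, and 32 and 39 on the other young adult and aged array, which lay on slides of their own. Defining genes of the tissue were present: *Omp*, the marker of mature olfactory receptor neurons (ORNs), was at an expression level of 293444 in young adult and 325213 in aged mice. The female-specific transcript *Xist* was at 629 and 641, and the 4 Y chromosome genes examined (*Ddx3y*, *Eif2s3y*, *Kdm5d* and *Uty*) did not clear background on any array, which goes against the male sex the methods give. This held for both ages, so no result below could be given without the arrays concerned. An expression level is here the normalized intensity after background correction, and log2 differences are aged minus young adult.

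*Chil4* showed the largest difference of the 5 genes. Its expression level was 240 and 230 in the young adult pools, against 3315 and 3200 in the aged pools. Both aged arrays were far above both young adult arrays, and the pools of one age lay close together. The mean rose from 235 ± 6.7 to 3257 ± 80.8 (SD, n = 2 pools), a log2 difference of 3.79 (standard error 0.079), or 13.9-fold. Within the slide that held one array of each age the log2 difference was 3.79, and between the other arrays 3.8.

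*Chil3*, which encodes Ym1, the close relative of the Ym2 protein of *Chil4*, had expression levels of 746 and 724 in the young adult pools, against 6271 and 6775 in the aged pools. The groups did not overlap, and the aged arrays differed more from each other than the young adult arrays did. The mean went from 735 ± 15.2 to 6523 ± 357 (SD, n = 2 pools), a log2 difference of 3.15 (standard error 0.087), or 8.87-fold. It was 3.07 within the shared slide and 3.23 between the other arrays. The files give no probe sequences, so how far the *Chil3* probe also detects *Chil4* transcripts, and the reverse, cannot be told from them. Their differences were not shown to be independent of each other.

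*Chia1*, the acidic chitinase, was higher in aged mice by a much smaller amount. The young adult pools were at 1287 and 1307 and the aged pools at 1737 and 1822. The gap between ages was wider than that between pools of one age. Means were 1297 ± 14.5 and 1779 ± 59.7 (SD, n = 2 pools), a log2 difference of 0.46 (standard error 0.079), or 1.37-fold, with 0.43 within the shared slide and 0.48 between the other arrays.

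**Figure D1:**
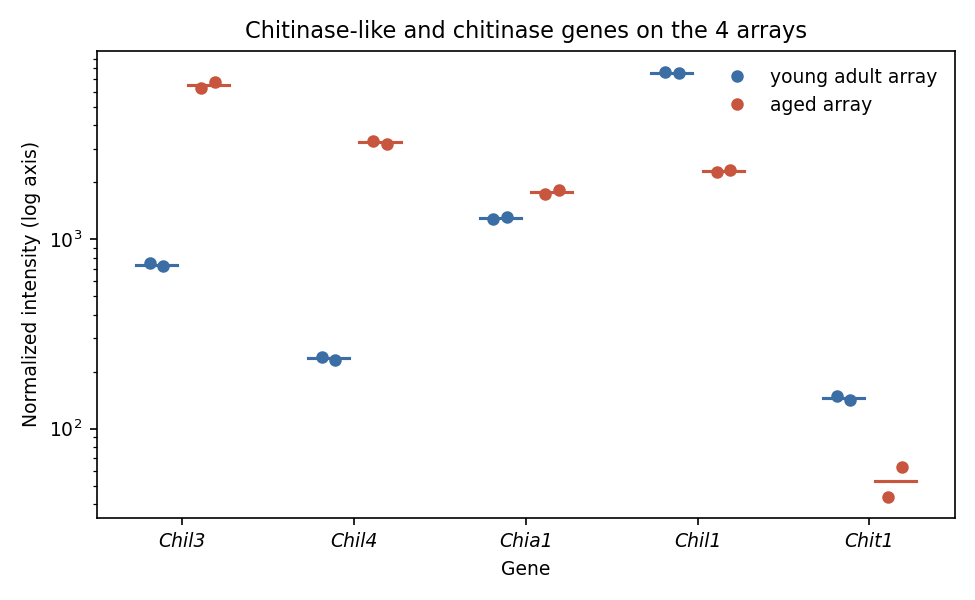
Normalized intensity (log axis) of the 5 genes on the 2 young adult arrays (blue) and the 2 aged arrays (red), with points for arrays and lines for group means. *Chil3* and *Chil4* stood 8.87-fold and 13.9-fold higher in aged mice, *Chia1* 1.37-fold higher, and *Chil1* and *Chit1* lower.

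*Chil1* moved the other way. The young adult pools were at 7662 and 7565, whereas the aged pools were at 2281 and 2325. Both aged arrays were below both young adult arrays, with pools of one age nearly equal. The mean went from 7613 ± 68.3 to 2303 ± 31.5 with age (SD, n = 2 pools), so that the level in young adult mice was 3.31-fold that in aged mice (log2 difference -1.73, standard error 0.075). The log2 difference was -1.75 within the shared slide and -1.7 between the other arrays.

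*Chit1*, the neighbour of *Chil1* and an active chitinase, had the lowest signal over background of the 5 genes, and its aged level lies near the limit of detection. Averaged over its 2 probes, the expression level was 149 and 142 in young adult pools but 43.8 and 62.6 in aged pools. Both aged arrays were below both young adult arrays, but they differed clearly from each other. Means were 145 ± 4.47 and 53.2 ± 13.3 (SD, n = 2 pools), a log2 difference of -1.47 (standard error 0.213).

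The probes of *Chit1* disagreed in size. The brighter probe was at 266 and 225 in young adult pools and at 55.4 and 69.3 in aged pools, a log2 difference of -1.98. The dimmer probe was at 83.1 and 89.9 and at 34.6 and 56.5, a log2 difference of -0.97. Both probes were lower on each aged array than on either young adult array. Of the aged arrays, only array 2, which had the lower background, showed them well above it, whereas both arrays of young adult mice did. In raw spot signal, the brighter probe was 4.78 and 7.93 times its local background in young adult pools and 1.52 and 2.21 times in aged pools. The size of the *Chit1* difference therefore depended on the background correction: a normexp offset of 50 gave a log2 difference of -0.96, and -1.97 was found with the processed signal of the scanner software scaled to the 75th percentile.

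**Figure D2:**
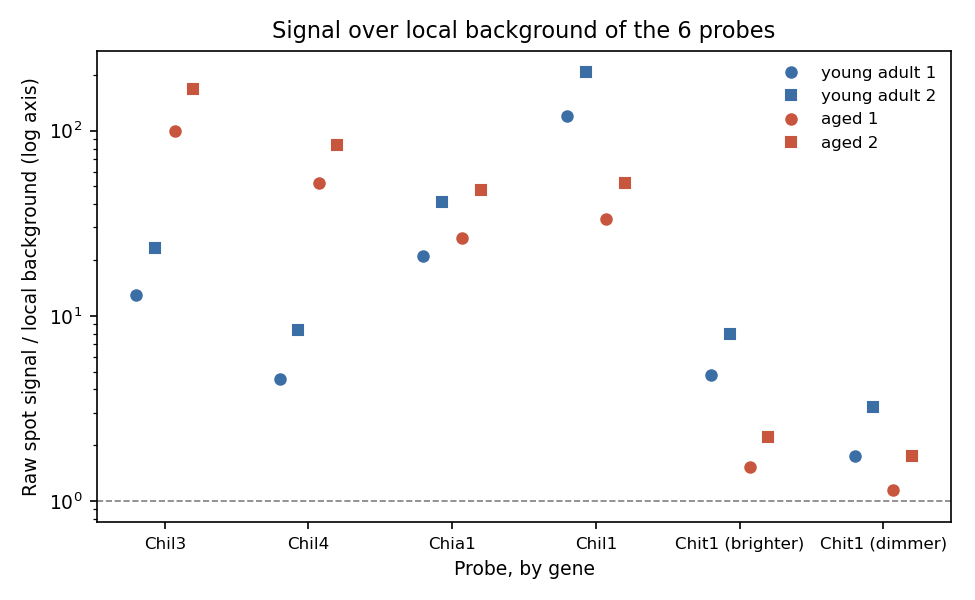
Raw spot signal divided by local background (log axis) of the 6 probes on each array, with circles for the arrays of the shared slide and squares for the others, and a dashed line where signal equals background. *Chil1*, *Chil3*, *Chil4* and *Chia1* were at 4.53 or more on every array, whereas the dimmer *Chit1* probe fell to 1.15 on aged array 1.

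Both aged arrays lay above both young adult arrays for 3 of the 5 genes, as for 24.2% of all genes tested, and below them for 2, as for 21.8% (46% in either direction). All 5 passed the criteria of the study (limma P below 0.05 and FDR below 0.25), which 3.98% of all 45616 genes did. Since the genes were chosen on this difference, nothing is read from these counts. With the further limits that the study names (a mean of at least 100 and a fold of at least 1.5), applied to the values computed here, *Chil3* and *Chil4* stood among the upregulated genes (0.813% of all) and *Chil1* among the downregulated genes (1.15%). *Chia1* was left out by its fold and *Chit1* by its mean of 99.3, which lies just under the limit in this processing. By size, *Chil4* was number 2 and *Chil3* number 4 among the rises of the 25521 genes with a mean of at least 100, *Chia1* was number 933, and *Chil1* was number 26 among the falls.

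**Figure D3:**
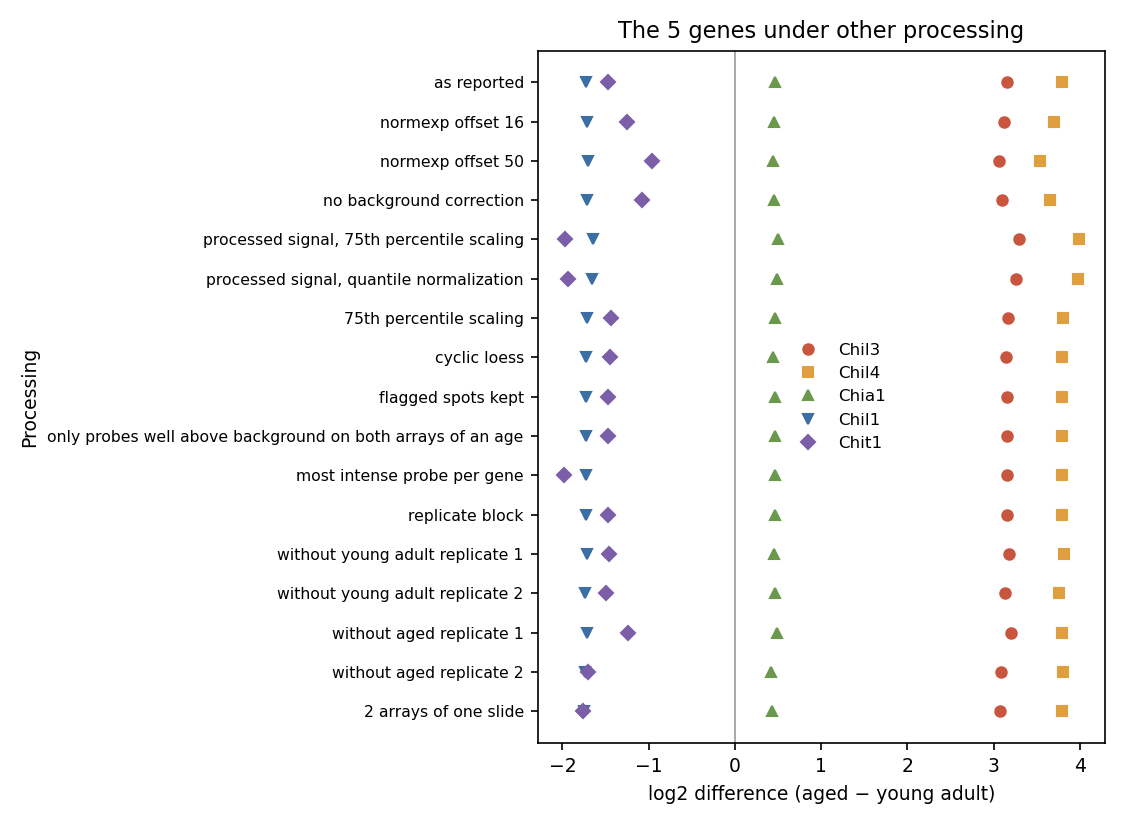
Log2 difference (aged minus young adult) of each of the 5 genes as reported (top row) and under each alternative of processing or with an array left out. No gene changed sign, and *Chit1* moved most, from -0.96 to -1.98.

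Of the remaining members of the chitinase family on the arrays, *Chil6* rose and 3 did not pass the criteria. *Chil6*, a chitinase-like gene that follows *Chil4* in the gene order, was at 39209 ± 910 in young adult and 64077 ± 816 in aged mice (SD, n = 2 pools), a rise with a log2 difference of 0.71 (standard error 0.076, FDR = 0.187 by limma). Its 2 probes both rose, by 0.95 and 0.47. *Ovgp1*, the oviductal glycoprotein of the same family, was at 799 and 957 (log2 difference 0.26, FDR = 0.34). *Chid1*, a lysosomal member, and *Ctbs*, which encodes di-N-acetylchitobiase, had log2 differences of -0.08 and 0.09 (FDR = 0.739 and 0.792). Of these 4 relatives, 1 passed the P and FDR criteria, higher in aged mice, as 1.65% of all genes did. *Chil5* was not measured under its symbol. With any 1 array left out, no gene of this list or of the lists below passed the criteria by limma, so every such call rests on all 4 arrays.

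Around *Chia1*, *Chil3* and *Chil4*, 15 of the 16 nearest protein-coding genes (8 on each side) were measured, and *Chil6* was the 1 that passed the criteria. The log2 differences of these 15 genes ran from -0.75 to 0.71, with a median of 0.05. Around *Chit1* and *Chil1*, all 16 neighbours were measured, with log2 differences from -1.04 to 0.69 and a median of -0.06. There 2 genes fell, *Fmod*, a collagen-binding proteoglycan (4176 to 2030, log2 difference -1.04, FDR = 0.178 by limma), and *Btg2*, an antiproliferative factor (5351 to 3901, -0.46, FDR = 0.226). They are the nearest neighbours of *Chit1* on the side away from *Chil1*. Among all genes, 2.33% were lower by these criteria.

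**Figure D4:**
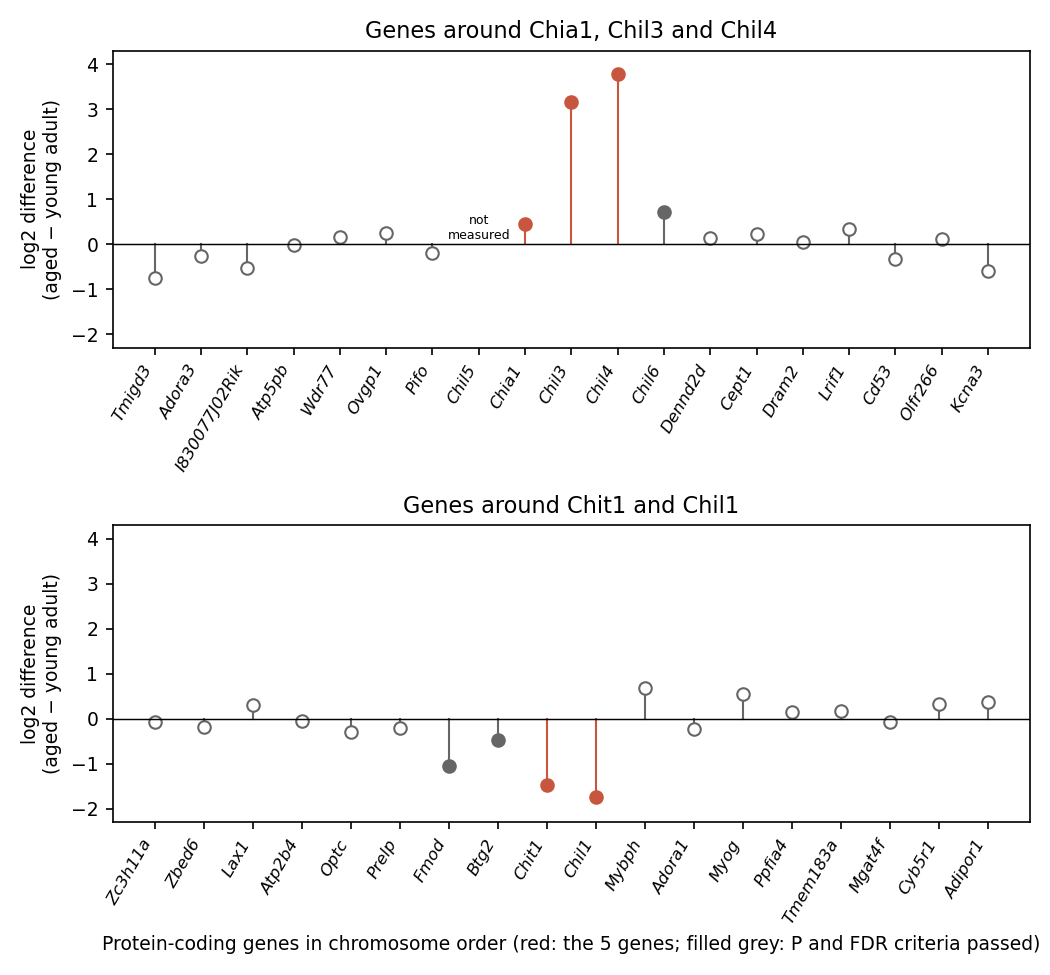
Log2 difference (aged minus young adult) of protein-coding genes in their order along the chromosome, around *Chia1*, *Chil3* and *Chil4* (upper panel) and around *Chit1* and *Chil1* (lower panel), with the 5 genes in red and filled grey points for neighbours that passed the P and FDR criteria. Beside the red points, *Chil6* (0.71), *Fmod* (-1.04) and *Btg2* (-0.46) are filled.

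Of 15 enzymes that release or recycle N-acetylglucosamine, the sugar unit of chitin, none passed the criteria (limma; 1 had an unadjusted P below 0.05), and their median log2 difference was -0.11, against 0.01 for all genes tested. The share of all genes with an unadjusted P below 0.05 is not given here. Nothing is therefore read from this count or from the like counts below. *Amdhd2*, which deacetylates N-acetylglucosamine phosphate, was at 5289 and 5210 (log2 difference -0.02, FDR = 0.919). Among 11 proposed binding partners of chitin and of chitinase-like proteins, 2 fell and none rose, with a median of -0.3. Of all genes, 1.65% were higher and 2.33% lower by the criteria, the shares to set beside the counts of this and the following lists. These were *Itln1*, a lectin that binds microbial sugars (1182 to 504, log2 difference -1.23, FDR = 0.178), and *Mrc1*, the macrophage mannose receptor (914 to 584, -0.65, FDR = 0.201). *Il13ra2* and *Tmem219*, which together have been proposed as a receptor of *Chil1* protein, were at 65.5 and 65.8 (FDR = 0.976) and at 9185 and 8371 (FDR = 0.58).

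*Chil3*, *Chil4* and *Chia1* are known targets of type 2 immune responses, which run from Il4 and Il13 through Stat6. None of 21 cytokines, receptors and signal transducers of this axis passed the criteria by limma, while 5, all lower in aged mice, had an unadjusted P below 0.05, a count given without the share of all genes. The median log2 difference was -0.09. *Il4* and *Tslp* were among the 5 with an unadjusted P below 0.05 by limma. However, *Il4* was not well above background on any array, and *Tslp* and *Il13* were on 1 young adult array only. No difference is therefore read from the values of these genes. *Stat6* was at 1261 and 1154 (log2 difference -0.12, FDR = 0.695), *Il33*, an epithelial alarmin, at 2559 and 2404 (-0.09, FDR = 0.791), and *Il4ra* at 270 and 304 (0.16, FDR = 0.703). Of 20 other genes listed here as targets of type 2 responses, 1 rose and 4 fell, with a median of -0.11. Whether each of them answers to this axis in this tissue was not tested. *Ccl17*, a T cell chemokine, rose from 325 to 506 (0.64, FDR = 0.232). *Muc5ac*, a secreted mucin (2475 to 575, log2 difference -2.1, FDR = 0.178), *Postn*, a matrix protein (2575 to 1258, -1.03, FDR = 0.178), *Retnlg* (160 to 95.6, -0.75, FDR = 0.225) and *Tff2*, a trefoil peptide of mucus (6079 to 4534, -0.42, FDR = 0.242), fell. *Arg1* and *Retnla*, which are often read beside *Chil3* as markers of alternative activation, were at 47 and 28.3 and at 44.7 and 58.7, and each was well above background on no more than 1 array of an age. *Retnlb*, *Clca1* and *Ccl22* did not clear background on any array. *Retnlg*, counted among the falls, was well above background on only 1 aged array.

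**Figure D5:**
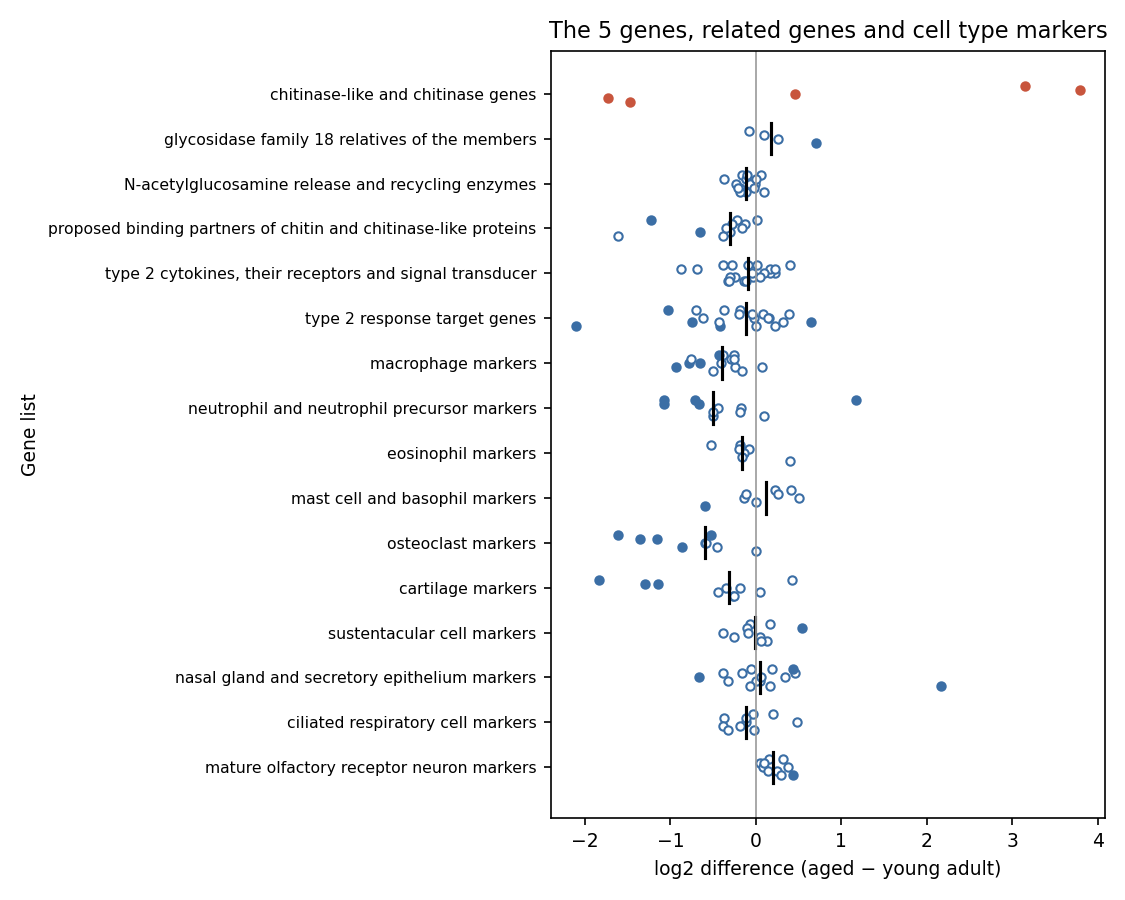
Log2 difference (aged minus young adult) of the 5 genes (red) and of the genes of each list (blue, filled where the P and FDR criteria were passed), with the median of each list as a black line. Macrophage, neutrophil and osteoclast markers had medians of -0.39, -0.5 and -0.6, and sustentacular and gland markers medians of -0.01 and 0.05.

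In a bulk sample, a change in the number of cells of one type and a change in RNA per cell cannot be told apart, so markers of cell types that can express these genes are given beside them. Among all genes, 1.65% were higher and 2.33% lower by the criteria. Of 14 macrophage markers, 4 fell and none rose (*Cx3cr1*, *Cd68*, *Mrc1* and *C1qc*, log2 differences from -0.94 to -0.43), and their summed level was 17614 to 17823 on the young adult arrays and 14516 to 14594 on the aged arrays. Of 11 neutrophil markers 4 fell, among them the calprotectin genes *S100a8* (-1.07) and *S100a9* (-1.08), with *Ngp* and *Ltf*. *Lcn2*, an iron-binding defence protein also made by epithelium, rose from 2173 to 4878 (1.17, FDR = 0.178 by limma). The summed level of the list was 381813 to 399241 on the young adult arrays and 293969 to 303167 on the aged arrays, a fall that came from *Ltf*, which is also a gland gene. Without *Ltf* the sum was 127742 to 133269 in young adult and 135316 to 135718 in aged mice, so that its direction turned. Most of that remaining sum was *Csf3r*, at 115367 in young adult and 123784 in aged mice (log2 difference 0.1, FDR = 0.646 by limma). Of the 11 markers, 9 were lower and 2 higher in aged mice, with a median log2 difference of -0.5. *Chil3* and *Chil4* were thus higher where the macrophage sum and most neutrophil markers were lower. The neutrophil sum itself was carried by *Ltf* and *Csf3r* and does not show how the other markers moved. The part of these cells in the difference of *Chil3* and *Chil4* was not tested.

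Of 7 eosinophil markers, none passed the criteria by limma. The 1 with an unadjusted P below 0.05, lower in aged mice, was *Epx*, the eosinophil peroxidase, which was not well above background on any array. The summed level was 543 to 595 in young adult and 520 to 529 in aged mice. Without *Ear2* the eosinophil sums of the ages overlapped (292 to 312 and 280 to 304). Among 8 mast cell and basophil markers *Kit* fell (-0.6), 5 were higher in aged mice, and the median log2 difference was 0.12. Their summed level was 2017 to 2205 in young adult and 1722 to 1780 in aged mice, and without *Kit* the ages overlapped (879 to 954 and 943 to 979).

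*Chil1* and *Chit1* fell beside markers of cartilage and osteoclasts, but not beside these alone. Of the macrophage markers above, 13 of 14 were also lower (median log2 difference -0.39), as were 9 of 11 neutrophil markers (median -0.5). Of 10 cartilage markers, 3 fell and none rose by the criteria (*Col2a1* -1.84, *Acan* -1.3 and *Col11a1* -1.15). The summed level was 5674 to 5884 in young adult and 3866 to 3988 in aged mice. In all, 8 of the 10 were lower and 2 higher, with a median log2 difference of -0.31. *Col9a1* went the other way, at 279 in young adult and 381 in aged mice (0.42, FDR = 0.569 by limma). *Matn1* and *Matn3* did not clear background on any array. Of 9 osteoclast markers, 5 fell and none rose, with *Acp5*, the tartrate-resistant acid phosphatase, at 38424 and 12590 (log2 difference -1.61, FDR = 0.168 by limma), and *Ctsk*, cathepsin K, at -1.36. The summed osteoclast level was 52937 to 53444 on the young adult arrays and 18683 to 18786 on the aged arrays. The part of these cells in the difference of *Chil1* and *Chit1* was not tested.

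Markers of the olfactory and secretory epithelium are set beside the 1.65% of all genes that were higher and the 2.33% that were lower by the criteria. Of 10 sustentacular cell markers 1 rose, *Cyp1a2*, an odorant-metabolizing cytochrome (0.54, FDR = 0.209 by limma), and the summed level was 945461 to 957929 and 922371 to 922760, with overlapping ages without *Ugt2a1* (765816 to 783588 and 779387 to 792993). Of 15 gland and secretory markers, *Bpifb9b*, a secreted lipid-binding protein (2.17, FDR = 0.168), and *Muc5b*, a gel-forming mucin (0.44, FDR = 0.245), rose and *Ltf* (-0.67) fell, while the summed level was 1789550 to 1809670 and 1763690 to 1789260. Without *Ltf* the gland sum was higher in aged mice (1535474 to 1543694 and 1595835 to 1631007). None of 10 ciliated cell markers passed the criteria (3 had an unadjusted P below 0.05, all lower), with a summed level of 48357 to 48565 and 42301 to 42850. Of 10 markers of mature ORNs, *Stoml3* passed (0.43, FDR = 0.243), and the summed level was 570188 to 578976 and 632217 to 640129. All 10 were higher in aged mice, with a median log2 difference of 0.2, against 0.01 for all genes. Both aged arrays lay above both young adult arrays for each of them, as for 24.2% of all genes. Without *Omp* the sum was 278149 to 284126 and 307538 to 314381. The part of these cells in the difference of *Chil3*, *Chil4* and *Chia1* was not tested.

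The genes with the most similar profile were sought by Euclidean distance between log2 values over the 4 arrays, each centred on its own mean, among 25474 genes. The nearest to *Chil3* were *Gh* (distance 0.05), *Serpina3n* (0.65) and *Chil4* (0.65), and the nearest to *Chil4* were *Gh* (0.64), *Chil3* (0.65) and *Prl* (1.18). *Chil3* and *Chil4* were thus among the 3 nearest of each other. For *Chil1* they were *Acp5* (0.12), *Csn3* (0.17) and *Col2a1* (0.17), for *Chia1* *Tmem86a*, *Klf2* and a transcript listed as AK148329 (0.02 or less), and for *Chit1* transcripts without a gene symbol, the nearest listed as DQ237936 (0.06). Over 4 arrays in 2 groups, genes with an age difference of like size lie near each other by this measure, and nothing further is read from it.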

How the data were processed

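Agilent SurePrint G3 Mouse arrays were hybridized with Cy3-labelled RNA and scanned by the authors, with spots quantified in Feature Extraction 11.0.1.1 and, per the labels, further work in R 3.2.1. The deposited files give, for each of 62976 spots, the raw median intensity, that of the local background, the scanner software's own background-subtracted intensity (processed signal) and quality flags, without normalization between arrays. The deposited series table equalled the processed signal at every spot. Median intensities were corrected by normexp (offset 0, all spots), control spots and outlier-flagged spots (88 to 118 non-control spots per array, none of the 6 probes) were left out, spots of a probe were averaged, log2 values were quantile normalized, and probes of a gene were averaged, in limma 3.58.1 under R 4.3.3. The study's methods name limma, quantile normalization and these averages, and a background correction of unstated kind. Probe accessions, stripped of versions, were looked up in RefSeq's gene table (GRCm38.p6), which named 32994 of 56605 probes. The array design uses build mm9, so no coordinates were taken from that table, and promoter sequences are RefSeq's.

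Ages were compared with limma (lmFit and eBayes, no covariates, Benjamini-Hochberg over 45616 genes), called at P below 0.05 and FDR below 0.25. An exact permutation test of 2 arrays against 2 cannot give a two-sided P below 0.333, so calls depend on the spread that limma borrows across genes. They measure only the spread between pools. The fit was tested on simulated arrays. Precision is limited by having 4 arrays and, near background, by weak signal. The genes and lists were chosen with earlier results of these data known. Lists covered relatives of the 5 genes, N-acetylglucosamine enzymes, binding partners, type 2 cytokines and targets, and markers of macrophages, neutrophils, eosinophils, mast cells, osteoclasts, cartilage, sustentacular cells, glands, ciliated cells and mature ORNs. The text names all 5 genes, their relatives, up to 4 called genes per list with the largest differences, and the 3 nearest profiles. Genes that do not pass the criteria, and any called gene beyond those 4, were named after their values were seen. *Chia2*, *Chil5*, *Clec7a*, *Ly6g*, *Siglec5* and *Tpsab1* were listed but not measured under their symbols. Protein sequences were not used here. Alternatives were other background offsets or none, the processed intensity, 75th percentile scaling, cyclic loess, flagged spots kept, dim probes left out, the most intense probe, an intensity trend, stricter limits, the replicate number as a block, 1 slide alone, and each array left out. Summed marker levels without the gene that contributed most to their change were added after seeing the data.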

Additional observations from a re-analysis of the deposited data

How the results depend on the processing

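The 5 genes kept the sign of their difference under every alternative run: of 80 values, 57 stayed within the spread between pools, 23 moved and 0 reversed. Many of these values could hardly move. None of the probes was flagged, only *Chit1* had more than 1 probe, and a balanced block leaves a difference unchanged. Apart from normalization, leaving out an array shifts a value by no more than the spread. It could not turn a sign either, since the ages did not overlap. The counts are therefore no measure of stability. The log2 difference was 3.7 for *Chil4* with a normexp offset of 16. With an offset of 50 it was -1.7 for *Chil1*, 3.06 for *Chil3*, 3.54 for *Chil4* and -0.96 for *Chit1*, and without background correction 3.65 for *Chil4* and -1.08 for *Chit1*. With the processed signal it was -1.64 or -1.66 (75th percentile or quantile) for *Chil1*, 3.29 or 3.26 for *Chil3*, 3.99 or 3.98 for *Chil4*, 0.5 or 0.49 for *Chia1* and -1.97 or -1.93 for *Chit1*. The most intense probe gave -1.98 for *Chit1*, and 1 slide alone gave -1.75 for *Chil1*, 3.07 for *Chil3* and -1.76 for *Chit1*. With each array left out in turn, *Chil1* ran from -1.74 to -1.71, *Chil3* from 3.08 to 3.2, *Chil4* from 3.76 to 3.82, *Chia1* from 0.42 to 0.49 and *Chit1* from -1.7 to -1.24. The counts of called genes per list varied, and so did the number called among all genes. That number was 1817 as reported, 1410 with percentile scaling, 1506 with the processed signal so scaled and 895 with the limits on mean and fold. It was 2991 with an offset of 16, 4585 with an offset of 50 and 4029 without background correction. It was 4376 with the processed signal quantile normalized, 2332 with cyclic loess and 2415 with the most intense probe. With dim probes left out it was 7153, and with an intensity trend 7124. It was 0 with any array left out, in each list too. With the replicate number as a block, 0 genes were called in all and in each list; the numbers did not pair the arrays (correlation of deviations -0.078). The list counts that moved by over 1.5 times are to be set beside the totals over all genes, and nothing is read from them. They were as follows. An offset of 16 called 8 type 2 targets, 5 cartilage, 2 sustentacular, 7 gland, 2 ciliated cell and 2 ORN markers. An offset of 50 called 2 relatives, 1 N-acetylglucosamine enzyme, 3 type 2 cytokine genes, 8 type 2 targets, 9 macrophage, 6 cartilage, 3 sustentacular, 7 gland, 3 ciliated cell and 4 ORN markers. No correction called 2 relatives, 1 enzyme, 4 binding partners, 2 type 2 cytokine genes, 8 targets, 7 macrophage, 5 cartilage, 3 sustentacular, 7 gland, 3 ciliated cell and 3 ORN markers. The processed signal called 1 type 2 cytokine gene and 0 ORN markers after percentile scaling. After quantile normalization it called 2 relatives, 4 binding partners, 2 type 2 cytokine genes, 8 targets, 9 macrophage, 1 eosinophil, 2 mast cell, 6 cartilage, 3 sustentacular, 7 gland, 2 ciliated cell and 3 ORN markers. Percentile scaling of the normexp values called 3 osteoclast and 0 ORN markers, cyclic loess 1 ciliated cell marker, and the most intense probe 5 cartilage and 2 ORN markers. Without dim probes 2 relatives, 1 enzyme, 7 binding partners, 6 type 2 cytokine genes, 9 targets, 11 macrophage, 1 eosinophil, 7 cartilage, 3 sustentacular, 9 gland, 4 ciliated cell and 4 ORN markers were called. An intensity trend called 2 relatives, 4 enzymes, 9 binding partners, 4 type 2 cytokine genes, 8 targets, 11 macrophage, 6 cartilage, 4 sustentacular, 10 gland, 5 ciliated cell and 6 ORN markers. The limits on mean and fold left 0 sustentacular and 0 ORN markers. The cause of these shifts was not tested. With 4 arrays and pools as replicates, differences of genes near background, *Chit1* among them, have little precision.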
